A study of Sus scrofa with 2 samples.

Results

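PI16, ADGRD1, ITGBL1, SMOC1, HMCN2, F3 and PLPPR1 were followed across cell classes in single nuclei of pig renal cortex before and after ex vivo perfusion. These 7 genes, of 31908 in the annotation, were chosen on earlier results from the same libraries, because they led a small fibroblast group or were much lower in perfused stroma. Their ratios in stromal nuclei and their place in that fibroblast group are therefore given as a description. In the data, 6 of the 7 genes met in the same few unperfused fibroblast-like nuclei, whereas PLPPR1 did not: it was a gene of tubule nuclei, and it was also lower there after perfusion. PI16 had more UMIs (unique molecular identifiers, each standing for 1 captured RNA molecule) in endothelial nuclei than in fibroblast-like ones.

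PI16 (peptidase inhibitor 16) is a secreted or membrane-anchored protein of the CAP family that marks fibroblasts of the adventitia, the connective tissue sheath around larger vessels. Such fibroblasts carry CD34, DPP4 and other matrix and guidance genes, and are regarded in several organs as a reserve from which more specialised fibroblasts arise. ADGRD1 (GPR133) is an adhesion G protein-coupled receptor. ITGBL1 is a secreted protein with repeats like those of integrin beta chains, SMOC1 is a calcium-binding matrix protein that modulates BMP signalling, and HMCN2 (hemicentin 2) is a very large matrix protein. F3 is tissue factor, the receptor for factor VII that starts coagulation and is carried by cells around vessels. PLPPR1 is a membrane protein related to lipid phosphate phosphatases and is best known from neurons.

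The study set unperfused kidneys against kidneys perfused ex vivo, in which pressure and flow load the vessels. Kidneys came from a slaughterhouse and were flushed and held at 4 °C. Cortex of the unperfused group was taken before perfusion, and that of the perfused group after 2 h with a balanced salt solution at 37 °C and 100 mmHg. Each group had 1 library, and whether both came from the same animal is not stated in the sources used here. There is thus no replicate error and no p-value in what follows. Intervals are exact 95% intervals for counting error only, and UMIs that lie in few nuclei make them too narrow. After filters on genes, mitochondrial UMIs and doublets, 6389 nuclei before perfusion (median 3755 UMIs) and 5421 after it (median 4383) were kept, and 8 of the kept barcodes occurred in both libraries. Named classes came from marker genes. Those used below are stroma (STROMA, 359 unperfused and 530 perfused nuclei), endothelium (EC), immune cells (IMM), podocytes (PODO), proximal tubule (PT), loop of Henle (LOH), connecting tubule (CNT), and the principal (PC) and type A intercalated (IC-A) cells of the collecting duct. Levels are CPM, the UMIs of a gene per 1000000 summed UMIs of the class in 1 library. Reads in introns were counted and the 7 genes span 10.7 kb (F3) to 288 kb (PLPPR1) in RefSeq, so levels were not compared between genes.

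Among the 10 subclusters of STROMA, only subcluster 8 took the name fibroblast-like at the resolution used. It had 29 unperfused nuclei, 0.454% of that library, and 3 perfused nuclei, 0.0553%. The name rested on 5 of 7 fibroblast markers and held in the unperfused nuclei, where DCN had 80 UMIs in 17 nuclei, COL1A2 62 UMIs in 18 and FBLN1, a matrix glycoprotein, 68 UMIs in 21. PDGFRA, a receptor common to many fibroblasts, was not higher than in the other unperfused stromal nuclei, at 181 against 277 CPM. Markers of other lineages were present at low counts. In the 29 nuclei the PT list had 61 UMIs, the EC list 36, the list for vascular smooth muscle 31, that for mesangial cells 12 and the IMM list 7. The lists for lymphatic endothelium, Schwann cells and adipocytes had 2, 3 and 0 UMIs, and the 1 mesothelial marker in the files, of 4, had 0. The 3 perfused nuclei held 11 UMIs of the fibroblast list and 11 of the smooth muscle list. Whether the name holds for those 3 was not tested. The 7 genes themselves had been kept out of the genes used for clustering, so they did not draw these nuclei together directly.

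**Figure D1:**
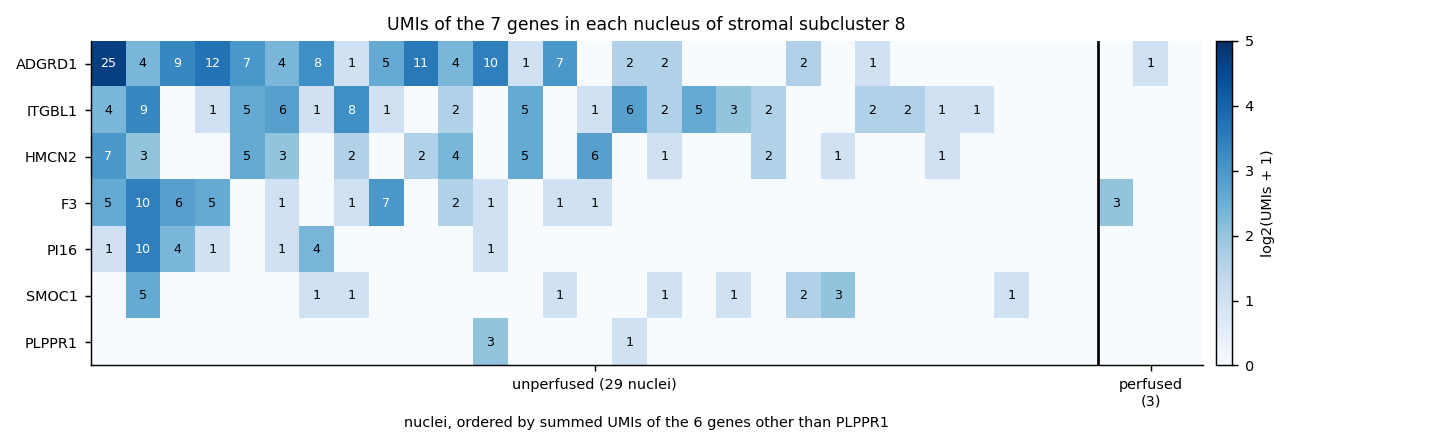
UMIs of each of the 7 genes (rows) in each nucleus of stromal subcluster 8 (columns, 29 unperfused left of the line and 3 perfused right of it, ordered by summed UMIs of the 6 genes other than PLPPR1); colour is log2(UMIs + 1) and empty cells hold 0. The 6 genes overlapped in the nuclei at the left, with up to 25 UMIs of ADGRD1 in 1 nucleus, and the 3 perfused nuclei held 4 UMIs of them in all.

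In the 29 unperfused nuclei of subcluster 8 the 6 genes had 302 UMIs together, with a median of 8 per nucleus and a highest value of 42. The 3 perfused nuclei had 3, 1 and 0 UMIs of these genes. They were shallow, with 1250, 1335 and 1075 UMIs in all, against a median of 2233 in the 29 unperfused nuclei. The part of depth in these counts was not tested. ITGBL1 had 67 UMIs in 20 of the 29 nuclei, and ADGRD1 had 115 in 18 nuclei. HMCN2 had 42 UMIs in 13 nuclei and SMOC1 had 16 in 9, so the matrix genes were found in part of the group. F3 had 40 UMIs in 11 nuclei, and PI16 had 22 UMIs in 7. PI16 was thus detected in a minority of these nuclei, and 45.5% of its UMIs there lay in 1 nucleus. As the genes differ in length, these counts were not compared between genes. PLPPR1 had 4 UMIs in 2 nuclei.

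The genes were not spread evenly within the group. Of the 29 nuclei, 15 had at least 3 of the 6 genes and held 83.1% of their UMIs, 12 had 1 or 2, and 2 had none. The nuclei with 3 or more were also the deeper ones, with a median of 2722 UMIs in all against 2040 in those with 1 or 2, and the part of depth in this split was not tested. F3 was detected in 6 of the 7 nuclei with PI16 and in 5 of the 22 without it. ADGRD1 was detected in all 7 nuclei with PI16 and in 11 of the other 22. A nucleus at the high end, with 5568 UMIs in all, held PI16 10, ADGRD1 4, ITGBL1 9, SMOC1 5, HMCN2 3 and F3 10. The nucleus with the most UMIs of the 6 genes had 25 of ADGRD1, 7 of HMCN2, 5 of F3, 4 of ITGBL1, 1 of PI16 and no SMOC1.

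Genes that the selection had not used gave more detail on these nuclei. Of 15 further adventitial fibroblast genes in the files, 12 were higher in the unperfused nuclei of subcluster 8 than in the other unperfused stromal nuclei, and 3 were lower. Higher here meant any excess in CPM, as for DPT with 3 UMIs against 4, and no share over all genes is given. The same count gave 5 higher and 7 lower for genes around tissue factor, 5 and 7 for BMP genes, and 3 and 6 for relatives of the members. The list of general fibroblast markers, from which the group was named, gave 6 higher and 1 lower. The count for adventitial genes thus does not tell adventitial fibroblasts from other fibroblasts. Complement C3 was at 272 against 17.0 CPM, IGFBP6 (an IGF-binding protein) at 194 against 14.0, CCDC80 at 233 against 36.1 and GSN (gelsolin) at 531 against 134. MFAP5, a microfibril protein, had 10 UMIs against 1 in the other 330 nuclei, but the 10 lay in 2 nuclei. DPP4, which marks adventitial fibroblasts in several organs, went the other way with 1 UMI against 52, and CLEC3B was at 38.9 against 54.1. The closest relatives of the matrix members were also lower here than in the other unperfused stromal nuclei. SMOC2 had 1 UMI in the 29 nuclei and 132 in the other 330. HMCN1 was present here, with 17 UMIs in 10 nuclei, at 220 against 473 CPM. KCNIP1, a potassium channel-interacting protein, led with the members at 2113 against 42.1 CPM, with 163 UMIs in 10 nuclei. Immediate early genes were among the leading genes too, with EGR1 at 557 against 29.0 CPM, FOS at 868 against 94.2 and NR4A3 at 1711 against 163. All of these genes could shape the clusters, so the differences describe the group and test nothing.

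In STROMA as a whole, every one of the 7 genes was lower in the perfused library, the contrast on which they were chosen. PI16 had 30 UMIs (27.9 CPM) before and 4 UMIs (2.14 CPM) after perfusion, and its log2 ratio, here and below perfused over unperfused, was -3.71 (-5.67 to -2.20). ADGRD1 had 151 and 30 UMIs, a log2 ratio of -3.13 (-3.75 to -2.56). ITGBL1 had 108 and 22 UMIs, with -3.10 (-3.83 to -2.42). The matrix genes were close to these in size. SMOC1 had 21 and 4 UMIs (-3.19, from -5.20 to -1.63), and HMCN2 had 58 and 11 UMIs (-3.20, from -4.28 to -2.25). F3 had 44 and 14 UMIs (-2.45, from -3.44 to -1.56), and PLPPR1 had 183 and 57 (-2.48, from -2.94 to -2.05). By the rule of a log2 ratio of -1 or under with an interval below 0, 7 of 7 were lower, against 5.10% of 10088 genes with at least 20 UMIs, whose median log2 ratio was 0.00. This count follows from the choice of the genes. Counted from the lowest ratio of the 10088 genes, PI16 ranked 3, HMCN2 10, SMOC1 11, ADGRD1 12, ITGBL1 13, PLPPR1 36 and F3 40. The 11 perfused UMIs of HMCN2 lay in 4 nuclei, and without the single nucleus richest in members in each library its log2 ratio was -4.48. With all nuclei that held a marker UMI of another lineage left out, which kept 45 unperfused and 50 perfused stromal nuclei, it was -0.20.

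**Figure D2:**
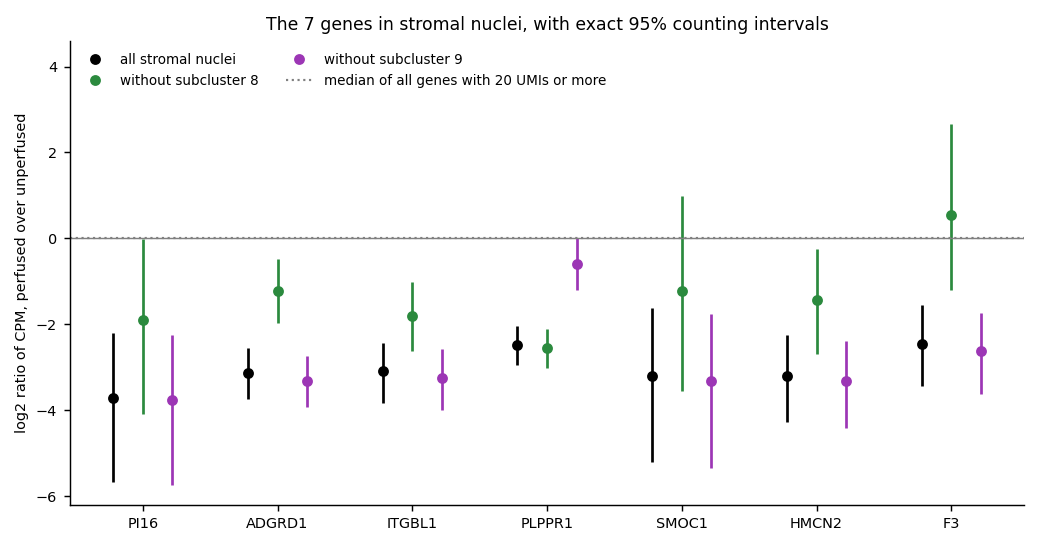
Log2 ratio of CPM, perfused over unperfused, for each gene in all stromal nuclei (black), without subcluster 8 (green) and without subcluster 9 (purple), 1 library per group; lines are exact 95% counting intervals, and the dotted line is the median of all genes with at least 20 UMIs, at 0.00. Leaving out subcluster 8 moved F3 from -2.45 to 0.55, and leaving out subcluster 9 moved PLPPR1 from -2.48 to -0.60.

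Where these UMIs lay differed between the genes. Without subcluster 8, F3 had 4 UMIs before and 11 after perfusion, a log2 ratio of 0.55 (-1.20 to 2.66), so the UMIs that set it lower in perfused stroma lay in that group. ADGRD1 and ITGBL1 remained lower without it, at -1.22 (-1.97 to -0.47) and -1.80 (-2.62 to -1.02), and so did HMCN2 at -1.45 (-2.70 to -0.25). Both ADGRD1 and ITGBL1 were also present in subcluster 0, the largest group of stromal nuclei, where ITGBL1 had 25 unperfused and 2 perfused UMIs (-4.03, from -7.15 to -2.03). There ADGRD1 had 23 and 14 UMIs (-1.10, from -2.18 to -0.08). Single nuclei weighed on both: 13 of the 25 UMIs of ITGBL1 and 9 of the 23 of ADGRD1 lay in 1 nucleus each, and ADGRD1 was detected in 7.14% of unperfused and 7.86% of perfused nuclei of subcluster 0. PI16 without subcluster 8 had 8 and 4 UMIs (-1.91, from -4.09 to -0.00), and SMOC1 had 5 and 4. In a bulk sense, fewer nuclei of a type and less RNA per nucleus cannot be told apart in such sums.

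PLPPR1 differed from the others. Of its 183 UMIs in unperfused STROMA, 140 lay in subcluster 9, a group of 19 unperfused and 2 perfused nuclei that stayed unnamed and was led by SLC17A4, PLPPR1 and SLC13A3, genes of the proximal tubule. Its unperfused nuclei held 846 UMIs of LRP2 and CUBN, the endocytic receptors of that tubule. Without subcluster 9, PLPPR1 had 43 and 57 UMIs, a log2 ratio of -0.60 (-1.20 to 0.01), and only 4 of the 43 were in the fibroblast-like nuclei. Proximal tubule markers moved with it: over all stromal nuclei the PT list was at 2005 CPM unperfused and 927 CPM perfused, with 7 of its 8 genes lower by the same rule. The markers of EC went from 996 to 1418 CPM and those of IMM from 292 to 550 CPM. The part of these lineages in the other members' ratios was not tested. In the unperfused nuclei of subcluster 8 all 8 PT and all 8 IMM markers were lower than in the other unperfused stromal nuclei. Those others include subcluster 9 and subcluster 1, which was led by the immune marker CD163. Summed, LRP2, CUBN, SLC12A1 and UMOD were at 10.4% of their unperfused library level in subcluster 8. In unperfused STROMA without subclusters 8 and 9 they were at 11.9%.

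Co-detection in single nuclei was counted next, first within classes. These shares restate in part how the genes were chosen, as 23 of the 39 unperfused nuclei below were in subcluster 8. In STROMA, 39 of 359 unperfused nuclei had UMIs of at least 2 of the 7 genes (10.9%, from 7.84 to 14.6), against 2 of 530 perfused nuclei (0.377%, from 0.0457 to 1.36). With PLPPR1 not counted, these were 31 nuclei (8.64%) and 1 nucleus (0.189%). The direction was the same in IMM, but that class was mixed and carried fibroblast markers too, as given below. It thus does not show the direction outside stromal nuclei. In IMM, 18 of 289 unperfused (6.23%) and 7 of 851 perfused nuclei (0.823%) had at least 2 of the 7 genes. Without PLPPR1 these were 8 (2.77%) and 2 nuclei (0.235%). PT nuclei, in which the 6 genes were low though F3 was found in 42 unperfused and 9 perfused ones, gave 5 of 1778 (0.281%) and 3 of 1198 (0.25%), with median depths of 5285 and 6630 UMIs against 2251 and 2548 in STROMA. The unperfused share in STROMA lay above that in PT, and the interval of the perfused share held it. With every nucleus thinned to 1000 UMIs, 22 of 338 unperfused nuclei (6.51%) and 0 of 473 perfused nuclei had at least 2 of the 7 genes, with 21 and 57 shallower nuclei left out. The count of 0 has an upper bound of 0.777%. In unperfused STROMA, ADGRD1 was detected in 78.6% of the 14 nuclei with F3 (49.2 to 95.3) and in 7.25% of the other 345. ITGBL1 was detected in 58.3% of the 24 nuclei with HMCN2 (36.6 to 77.9) and in 7.46% of the other 335. These pairings restate the choice of the genes, as 10 of the 11 nuclei with both F3 and ADGRD1 were in subcluster 8. Without that group, ADGRD1 was detected in 1 of 3 unperfused nuclei with F3. ITGBL1 was then detected in 3 of 11 with HMCN2 (27.3%, from 6.02 to 61.0) and in 5.02% of the other 319. In all of unperfused STROMA, PLPPR1 showed no such pairing, as it was detected in 13.9% of the 36 nuclei with ADGRD1 and in 14.2% of those without.

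**Figure D3:**
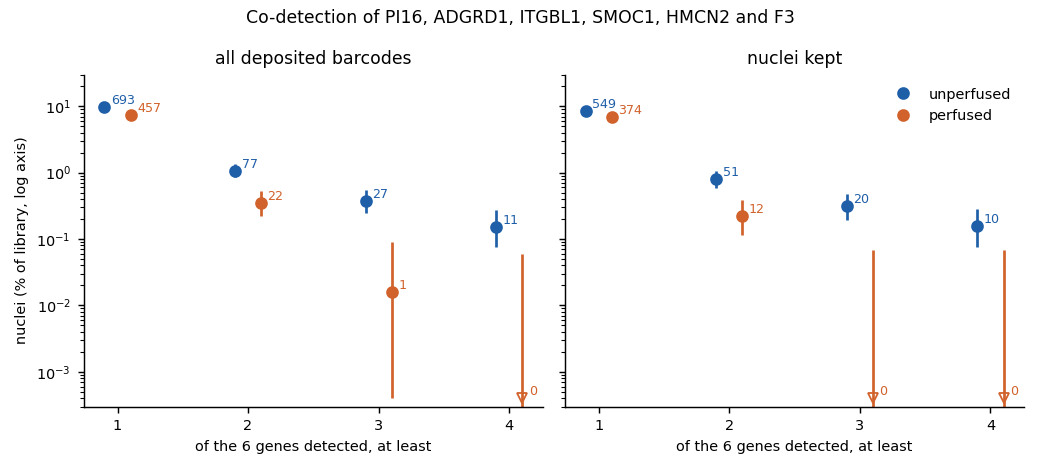
Percent of barcodes (log axis) in each library with UMIs of at least 1, 2, 3 or 4 of the 6 genes other than PLPPR1, for all deposited barcodes (left) and nuclei kept (right); lines are exact binomial 95% intervals, figures beside the points are numbers of nuclei, and open triangles mark 0. At 3 or more genes there were 27 unperfused barcodes and 1 perfused barcode before any filter, and 20 and 0 after it.

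Counts over whole libraries used no clusters, but they too restate in part how the genes were chosen. Among all deposited barcodes, 27 of 7179 unperfused (0.376%, from 0.248 to 0.547) and 1 of 6205 perfused (0.0161%, from 0.000408 to 0.0898) had at least 3 of the 6 genes. Of the 27, 15 were in subcluster 8, 3 in IMM and 1 each in stromal subclusters 1 and 9, while 4 were called doublets and 3 had over 6000 genes. The perfused one had over 6000 genes as well, with 51090 UMIs. Detection of a single gene differed much less, in 9.65% of unperfused and 7.37% of perfused barcodes. At 2 or more genes the counts were 77 and 22. One of the IMM nuclei had 18 UMIs of PI16, 22 of F3, 9 of ADGRD1 and 8 of ITGBL1. It was a deep one, with 9980 UMIs in all, where the deepest nucleus of subcluster 8 had 5754.

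How many nuclei count as fibroblast-like depended on the clustering. At the resolution used, they were 29 of 359 unperfused (8.08%, from 5.48 to 11.4) and 3 of 530 perfused stromal nuclei (0.566%, from 0.117 to 1.65). At resolutions of 0.3 and 1.0 the stromal class took in other nuclei, and a second subcluster with collagen markers but led by mitochondrial or metallothionein genes was also named fibroblast-like. That subcluster held 63 unperfused and 175 perfused nuclei at 0.3, and 63 and 154 at 1.0. It had 12 unperfused UMIs of the 6 genes at both settings, and 19 perfused ones at 0.3 and 17 at 1.0. The subcluster with ADGRD1 or F3 among its leading genes stayed small and mostly unperfused in all 6 other clustering settings tried, with 27 to 31 unperfused and 1 to 3 perfused nuclei. Fibroblast-like nuclei in general were therefore not shown to be scarce in the perfused library, and the group that was small in it was the one rich in the 6 genes, on which they had been chosen. The IMM class, which held 289 unperfused and 851 perfused nuclei, carried fibroblast markers at 1663 and 1602 CPM, against 1329 and 1447 CPM in STROMA. In IMM the EC list was at 2738 and 2865 CPM and the PT list at 2649 and 1977 CPM. The IMM list itself was at 2015 and 1693 CPM there. The class was thus mixed, and values given for IMM are not those of immune cells alone.

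**Figure D4:**
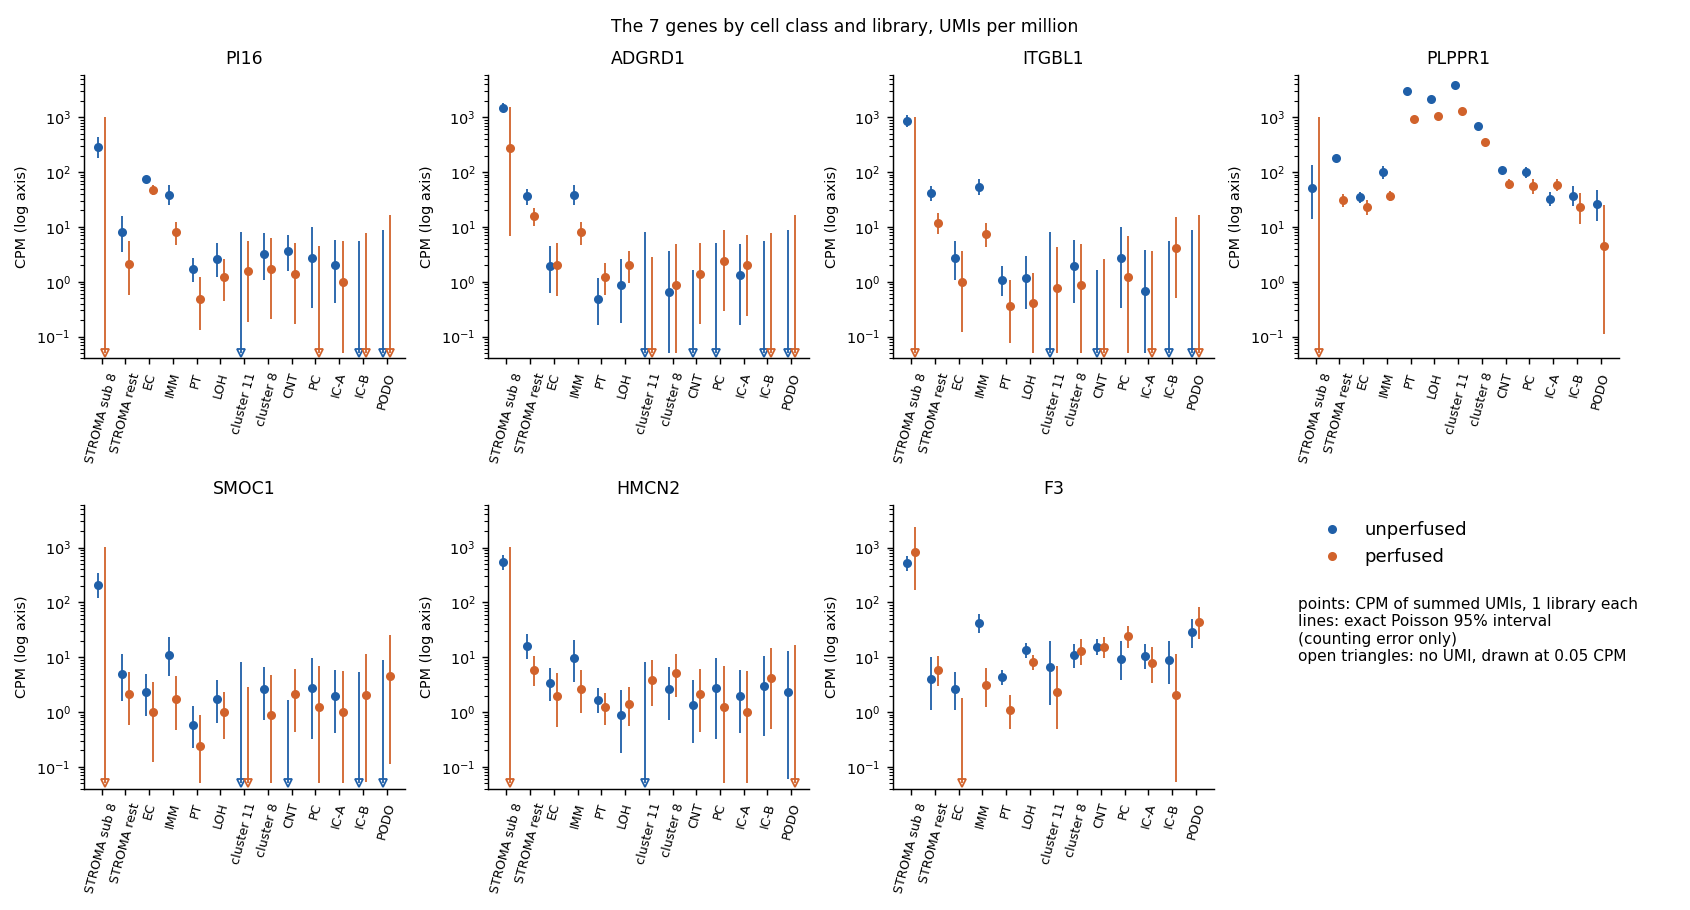
CPM (log axis) of each of the 7 genes by cell class in the unperfused (blue) and perfused (orange) library, 1 library each, with exact Poisson 95% intervals; open triangles mark classes with no UMI, and STROMA is split into subcluster 8 and the rest. In the unperfused library ADGRD1, ITGBL1, SMOC1 and HMCN2 were highest in subcluster 8, which had no perfused UMI of the last 3, PI16 was also high in EC, and PLPPR1 was highest in PT, LOH and the unnamed cluster 11.

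Across the kidney, PI16 was mainly an endothelial gene by its number of UMIs. EC held 198 of its unperfused UMIs in kept nuclei (65.8%) and 96 of its perfused ones (70.6%), whereas subcluster 8 held 22 (7.31%) and 0. Its order of levels over both libraries summed ran from subcluster 8 (272 CPM, from 171 to 412) to EC (63.4, from 56.4 to 71.1) and then IMM (14.5, from 10.5 to 19.6), with no overlap of intervals between the first 3. IMM and STROMA as a whole (11.5, from 7.99 to 16.1) overlapped. The place of subcluster 8 came from the unperfused library, as PI16 had no UMI in its 3 perfused nuclei, where a level of up to 1008 CPM is allowed. That place also restates in part how the genes were chosen. In EC, PI16 was at 75.3 CPM before and 47.9 CPM after perfusion, which gave a log2 ratio of -0.65 (-1.02 to -0.29), while the median of all genes in EC was -0.13. The larger EC cluster 0 had 173 and 73 UMIs (-0.79, from -1.20 to -0.39), and cluster 10 had 25 and 23 (-0.10, from -0.99 to 0.77). Whether these 2 endothelial groups differed was not tested. By the rule used in STROMA, 0 of the 2 members with at least 20 UMIs in EC were lower, against 5.08% of genes there.

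Endothelial PI16 was concentrated in few nuclei. It was detected in 82 of 1295 unperfused EC nuclei (6.33%) and 41 of 811 perfused ones (5.06%), and the 38 and 18 nuclei with at least 2 UMIs held 77.8% and 76.0% of the UMIs. These PI16-rich nuclei were compared with EC nuclei without PI16. Both this step and the arterial genes below were chosen after the values were seen, so the shares describe and test nothing. GJA4, a connexin of arterial endothelium, was detected in 39.5% of the 38 unperfused nuclei (24.0 to 56.6) and in 3.87% of the 1213 without PI16. In the perfused library it was in 38.9% of 18 (17.3 to 64.3) and in 4.55% of 770. GJA5, a second arterial connexin, was in 23.7% against 2.72% unperfused and in 27.8% against 2.21% perfused. SEMA3G, a semaphorin of arterial endothelium, gave 44.7% against 8.33% and 55.6% against 5.06%. By excess in CPM in the unperfused PI16-rich nuclei, GJA5 ranked 9 and GJA4 12, while ADAMTS6 and CEMIP came next after PI16. The pan-endothelial PECAM1 was in 92.1% and 100% of the PI16-rich nuclei, so they carried an endothelial marker as well. They were deeper than the others, with medians of 3005 against 1846 UMIs unperfused and 3496 against 2177 perfused, and the part of depth in these shares was not tested.

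ADGRD1, ITGBL1, SMOC1 and HMCN2 were the most stromal of the set. Subcluster 8, with 0.454% of the unperfused nuclei, held 58.4% of the unperfused UMIs of ADGRD1, 39.0% of those of ITGBL1, 38.5% of those of HMCN2 and 28.1% of those of SMOC1. Over both libraries summed it had the highest level of each, from 116 UMIs of ADGRD1 and from unperfused UMIs alone for the other 3. Its interval did not overlap that of the next unit, STROMA as a whole, which includes subcluster 8. The genes were chosen in part for leading this group, so its place restates the choice. IMM came after STROMA for these genes. For SMOC1 the intervals of STROMA (8.48 CPM, from 5.49 to 12.5) and IMM (3.81, from 1.90 to 6.81) overlapped. In IMM, ADGRD1 was at 38.4 CPM unperfused and 7.95 perfused (log2 ratio -2.27, from -3.24 to -1.33). ITGBL1 was there at 54.4 and 7.51 (-2.86, from -3.79 to -1.98). Outside STROMA and IMM the 4 genes were low, though no background level was set. For SMOC1 and HMCN2 the level in IMM, 3.81 and 4.15 CPM over both libraries, overlapped that of the next class. SMOC1 had 57 unperfused and 25 perfused UMIs in kept nuclei, of which STROMA held 25 and IMM 11 over both libraries. In PT, ADGRD1 had 5 and 10 UMIs and SMOC1 had 6 and 2, in 1778 and 1198 nuclei.

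F3 had the broadest pattern. Besides subcluster 8, it had UMIs in podocytes (28.4 CPM unperfused, 44.8 perfused), principal cells (9.48 and 24.4), connecting tubule (15.6 and 15.5) and the loop of Henle (13.5 and 8.05). Its level in subcluster 8 over both libraries was 532 CPM (385 to 717), a place that restates in part how the genes were chosen. The interval did not overlap that of any class. The next 6 in order, from 42.4 CPM in the unnamed cluster 17 to 15.6 in CNT, each overlapped their neighbour. In PT it was lower in the perfused library, with 44 and 9 UMIs (-1.99, from -3.21 to -0.94). In LOH it had 46 and 40 UMIs (-0.74, from -1.39 to -0.10). In IMM it had 26 and 7 UMIs (-3.75, from -5.20 to -2.51), of which 22 of the 26 were in the single rich nucleus named above. In principal cells the ratio was the other way, with 7 and 20 UMIs (1.37, from 0.07 to 2.85).

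PLPPR1 was a tubule gene in these data, with 42275 unperfused and 15723 perfused UMIs in kept nuclei. PT held 30906 and 7760 of them, LOH 7299 and 5274, and cluster 11, an unnamed group of tubule-like nuclei with LRP2 and CUBN, 1739 and 1644. In PT it was detected in 95.7% of unperfused and 84.0% of perfused nuclei, and in 82.1% and 49.7% after thinning to 1000 UMIs. A PT nucleus had a median of 13.5 UMIs of PLPPR1 unperfused and 4 perfused, although the perfused PT nuclei were the deeper ones (medians of 5285 and 6630 UMIs in all).

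The lower level of PLPPR1 after perfusion was not a matter of stroma. In PT its level was 3057 CPM before and 942 CPM after perfusion, which gave a log2 ratio of -1.70 (-1.73 to -1.66), and PT clusters 1 and 3 gave -1.64 and -1.86. In LOH its level was 2135 CPM before and 1062 CPM after it, which gave -1.01 (-1.06 to -0.96). In cluster 11 the median level of a nucleus was 4058 CPM before and 997 CPM after it. The 8 PT markers in the same nuclei ranged from -0.32 (SLC5A2, a glucose transporter) to 0.44 (SLC22A8, an organic anion transporter), with LRP2 at 0.07 and CUBN at 0.17. The 5 LOH markers in LOH ranged from -0.57 (KCNJ1, a potassium channel) to 0.39 (UMOD, uromodulin). PLPPR1 thus changed by more than any marker of the class it lay in. By the rule used in STROMA, 2 of the 2 members with at least 20 UMIs in PT were lower (PLPPR1 and F3) against 8.83% of genes, and 1 of 2 in LOH (PLPPR1) against 5.70%. Counted from the lowest ratio, PLPPR1 ranked 475 of 13397 genes in PT and 704 of 12363 in LOH, where 705 genes met the rule. Its call in LOH ended under TMM (-0.86) and DESeq2 (-0.86) scaling.

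**Figure D5:**
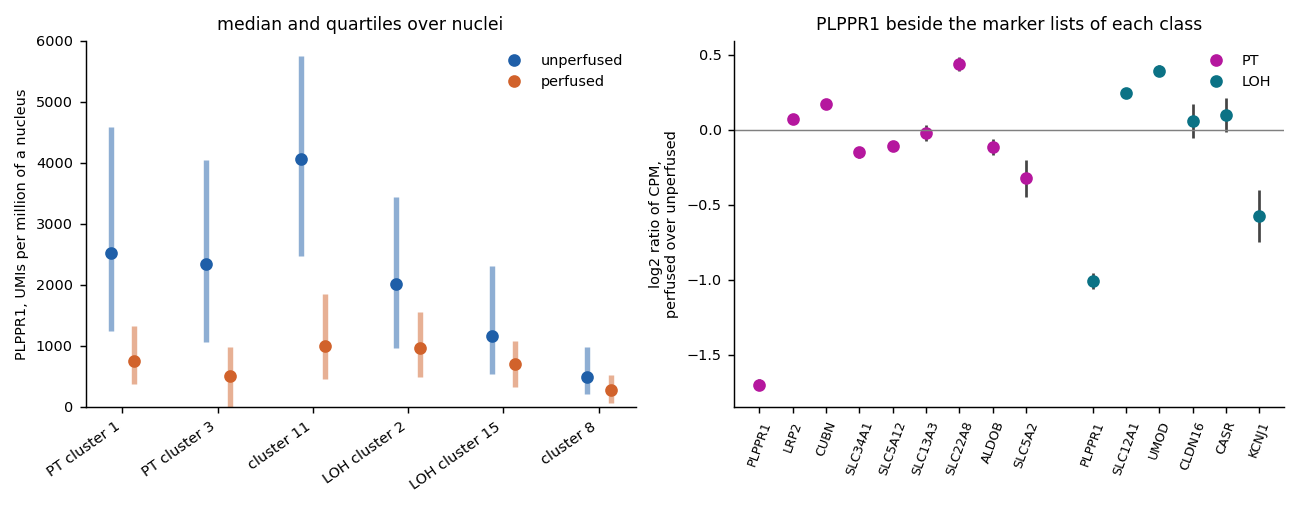
Left, PLPPR1 as CPM of a single nucleus in 6 tubule clusters, median (point) and quartiles (bar) over nuclei of the unperfused (blue) and perfused (orange) library; right, log2 ratio of CPM, perfused over unperfused, of PLPPR1 beside the markers of PT (magenta) and LOH (teal) in the same nuclei, with exact 95% counting intervals. PLPPR1 lay at -1.70 in PT and -1.01 in LOH, below every marker of its own class.

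PLPPR1 was also found outside the tubule, beside other tubule RNA. For each UMI of LRP2 and CUBN there were 0.133 UMIs of PLPPR1 in EC, 0.130 in IMM and 0.148 in STROMA without subclusters 8 and 9 in the unperfused library. The perfused library gave 0.0735, 0.0608 and 0.0848. In subcluster 9 the unperfused ratio was 0.165. The ratio was 0.347 and 0.0977 in PT itself. Other groups differed from these, with unperfused ratios of 0.385 in the unnamed cluster 17, 0.056 in cluster 14 and 0.455 in stromal subcluster 4 (5 UMIs of PLPPR1). EC cluster 10 had 0.173 before and 0.161 after perfusion.

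Over all kept nuclei, whatever their class, 5 of the 7 genes were lower by the same rule, with 8.82% of 18429 genes lower by it. This count reuses the values the genes were chosen on, since STROMA held 76.6% of the unperfused UMIs of ADGRD1 and 62.8% of those of ITGBL1, and nothing is read from it. ITGBL1 was at -1.78, PLPPR1 at -1.45, ADGRD1 at -1.34, SMOC1 at -1.21 and PI16 at -1.17. SMOC1 no longer met the rule with doublets kept (-0.95) or after thinning to 1000 UMIs (-0.83). HMCN2 at -0.96 and F3 at -0.66 did not reach the rule's -1, and HMCN2 turned to 0.45 where nuclei with another lineage's marker were left out. These values add up classes with different shares in the libraries, so they describe the libraries and not a cell type.

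Lists of related genes in STROMA are given beside the 5.10% of all genes that were lower by the rule, a share at which none of 4 or 8 genes says little. The 15 adventitial fibroblast genes in the files summed to 1120 CPM before and 1042 CPM after perfusion, a log2 ratio of -0.10 (-0.21 to 0.00) that went to 0.0046 under TMM and 0.0039 under DESeq2 scaling. Of the 13 with at least 20 UMIs, 2 were lower by the rule (DPP4 at -1.88 and IGFBP6 at -1.20), and the median of the 13 was 0.04. DPP4 had 1 unperfused UMI in subcluster 8 and 52 in the other stromal nuclei. The PT list was also lower in perfused STROMA, at 2005 and 927 CPM, and the part of tubule RNA in the ratio of DPP4 was not tested. CD34, a surface marker of these fibroblasts and of endothelium, was higher at 0.74 (0.13 to 1.38), and so was CLEC3B at 0.91 (0.47 to 1.36). The 7 fibroblast markers had a median of 0.18 over the 6 with at least 20 UMIs, and none was lower by the rule. Of the relatives of the members by sequence family, 4 of 11 had at least 20 UMIs and none was lower by the rule: SMOC2 was at 0.34 (0.04 to 0.65), HMCN1 at 0.11, and the CAP family genes CRISPLD2 and GLIPR1 at -0.25 and -0.96 (-1.80 to -0.13). Of genes around tissue factor, the inhibitor TFPI2 was at 0.28 (0.03 to 0.53) and the thrombin receptor F2R at -0.20, with 0 of 4 lower by the rule. Of BMP genes, which SMOC1 bears on, 0 of 8 were lower by the rule, BMP4 was higher at 1.35 (0.68 to 2.07) and the receptor gene BMPR1A was at -0.35 (-0.53 to -0.17). The all-gene median in STROMA was 0.00.

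KCNIP1, the gene that led subcluster 8 together with the members, was also lower in perfused STROMA, with 205 UMIs in 22 nuclei unperfused and 58 in 30 nuclei perfused (-2.62, from -3.07 to -2.20). Without subcluster 8 it was at -0.44 (-1.04 to 0.17). Of the immediate early genes among its leading genes, NR4A3 was at -1.91 over STROMA and at -1.18 (-1.52 to -0.84) without that group, whereas EGR1 was at 0.35 and 1.53 (0.95 to 2.16).

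Likeness of pattern was measured as Pearson's r of log2(CPM + 5) over 44 pairs of class or subcluster and library with at least 20 nuclei. Such units share libraries, depth and free RNA, so r is a description. They also include unperfused subcluster 8, for which the genes were in part chosen, with ADGRD1 at 1491 and ITGBL1 at 868 CPM. The weight of that unit in r was not tested, so likeness among the members restates in part their choice. Among the members, ADGRD1 and ITGBL1 had the closest patterns (r = 0.86) and ADGRD1 and SMOC1 followed (r = 0.76), while PLPPR1 had r of -0.26 to 0.05 with every other member. Among all genes with at least 20 UMIs, ADGRD1 came closest to ITGBL1, followed by PLXDC1 (r = 0.82) and RSPO3 (r = 0.81). ITGBL1 was followed after ADGRD1 by FAM180A (r = 0.83), SMOC1 was closest to RSPO3 (r = 0.79) and HMCN2 to PI15 (r = 0.82), a CAP family gene. PI16 was closest to SYT2 (r = 0.86) and TRIM47 (r = 0.82), and F3 to RHBDL1 (r = 0.71). PLPPR1 was closest to KCNJ16 (r = 0.87), GGH (r = 0.85) and EGF (r = 0.84), genes of tubule epithelium.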

How the data were processed

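Nuclei of pig renal cortex were profiled with 10x Genomics 3′ chemistry, 1 unperfused and 1 perfused library. The authors aligned reads to an Ensembl pig reference with Cell Ranger 5.0.1, intronic reads included, and deposited the raw UMI counts, unfiltered for nuclei quality (34415254 UMIs in 7179 unperfused and 35525592 in 6205 perfused barcodes). The counts were taken to precede ambient RNA removal. Normalized values and sequences were not used here.

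The kept nuclei had 500 to 6000 genes and no more than 7% of UMIs from mitochondrial genes, and barcodes that Scrublet (scanpy 1.11.5) called doublets within a library were dropped. Libraries were integrated in Seurat 5.3.0 (R 4.3.3; 2000 variable genes without the 7 members, 30 anchor dimensions, 15 principal components, resolution 0.5). A cluster was named where at least 3 markers of the best list had a log2 fold over 1 and a UMI in 10% of nuclei and no other list had more markers among its 10 leading genes; STROMA was clustered again in the same way. UMIs were summed per class and library and given as CPM. Log2 ratios have exact conditional binomial intervals, shares exact Clopper-Pearson ones and levels exact Poisson ones, all at 95%, and cover counting error alone. For a ratio, 3 UMIs stood in for none, and where neither library had over 3 UMIs none was given. With 1 library per group no test was made. Ratios and intervals were computed on simulated counts too. Those counts followed the model of the intervals, with no UMIs gathered in few nuclei. They therefore cannot show how the intervals hold where UMIs lie in few nuclei. Named genes are the 7 members, genes of the marker lists and of 4 lists (adventitial fibroblast genes, relatives of the members, genes around tissue factor, BMP genes), the closest 5 genes by pattern, and genes leading subcluster 8 or the PI16-rich EC nuclei, which were picked after their values were seen. The members and lists were chosen with earlier results of these data known. Alternatives were other resolutions, doublets kept, no mitochondrial limit, members among variable genes, no integration, scaling by edgeR 4.0.16 (TMM) or DESeq2 1.42.0, free RNA subtracted, nuclei with another lineage's marker left out, thinning, stroma by markers alone, all barcodes and other UMI minimums.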

Additional observations from a re-analysis of the deposited data

Results flagged for a closer look

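With 1 library per group, a difference in direction between cell classes could be seen but not tested, and 5 were seen where a class had at least 10 UMIs of a member in 1 library while the member was lower in perfused STROMA. ADGRD1 was at 1.198 in LOH (3 and 10 UMIs, from -0.76 to 3.70) and at 1.30 in PT (5 and 10 UMIs, from -0.39 to 3.19), on the log2 scale of perfused over unperfused. PLPPR1 was at 0.87 in IC-A (48 and 59 UMIs, from 0.30 to 1.45). There 15 of its 59 perfused UMIs lay in 1 nucleus, and it was detected in 10.7% of unperfused and 14.9% of perfused nuclei. Summed, LRP2, CUBN, SLC12A1 and UMOD were in IC-A at 8.30% of their library level unperfused and 11.8% perfused. The part of tubule RNA in this ratio was not tested. F3 was at 1.37 in PC (7 and 20 UMIs, from 0.07 to 2.85) and at 0.66 in PODO (12 and 10 UMIs, from -0.71 to 1.996). The differences between these classes and STROMA were not tested. Of the 5 intervals, 3 hold 0.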

How the results depend on the processing

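Of 232 recomputed values, 184 moved by less than their counting interval, 47 moved by more and 1 turned. PI16, ADGRD1 and SMOC1 in STROMA stayed within it under every alternative listed that gave a value. Leaving out subcluster 8 was not among these alternatives. The ratios given above without that group lay outside the interval for PI16 and ADGRD1, and none is given for SMOC1. Leaving out nuclei with a marker UMI of another lineage kept 45 unperfused and 50 perfused stromal nuclei and gave log2 ratios in STROMA of -2.37 for ITGBL1, -0.20 for HMCN2 and -3.66 for F3. Over all nuclei it gave -2.84 for PI16, -2.51 for ADGRD1, -0.57 for PLPPR1, -0.22 for F3 and, turned, 0.45 for HMCN2. It gave -0.30 for the adventitial list, and 4.44% and 2% of unperfused and perfused stromal nuclei with at least 2 members, the latter also the perfused fibroblast-like share. Thinning to 1000 UMIs gave -1.61 for PLPPR1 and -4.88 for HMCN2 in STROMA, -1.54 and -1.52 over all nuclei, and 6.51% and 0% of nuclei with at least 2 members. PLPPR1 in STROMA was -2.99 at a resolution of 0.3, -3.58 with no mitochondrial limit, -3.25 with members among the variable genes and -2.04 without integration. Over all nuclei it was -1.38 with doublets kept, -1.35 under either scaling and -1.40 over all barcodes. The adventitial list was 0.0046 under TMM, 0.0039 under DESeq2, -0.21 with free RNA subtracted and 0.084 with stroma taken by markers alone. The fibroblast-like shares of unperfused and perfused STROMA were 14.0% and 12.8% at a resolution of 0.3, 16.5% and 13.04% at 1.0, and 0.0801% (perfused) without integration. Genes lower in STROMA numbered 835 at a minimum of 10 UMIs and 185 at 50. Except where a value above shows it, the cause of these moves was not tested.

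Chosen after the data were seen, leaving out subcluster 9 gave -0.60 for PLPPR1 and leaving out each library's nucleus richest in members gave -4.48 for HMCN2 in STROMA. Counting only the subcluster with ADGRD1 or F3 among its leading genes gave unperfused shares of 4.63% at 0.3 and 5.32% at 1.0, and 0.0801% (perfused) without integration. TMM and DESeq2 moved all log2 ratios up by 0.11 in STROMA and by 0.09 to 0.15 elsewhere. Free RNA subtraction left no PLPPR1 ratio in STROMA, since its estimate exceeded the UMIs, and SMOC1 had too few UMIs once nuclei of other lineages were left out. No paired analysis was possible because each group has 1 library, and no replicate could be left out. Depth limits PI16 and SMOC1 most, with 4 perfused stromal UMIs each.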
